A study of Mus musculus with 15 samples.

Results

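Rabl2, Syt10, Cpne8, Dcst2 and Gm15417 are 5 of the 53762 genes counted by RNA sequencing in sorted mouse thymocytes. They were chosen because they stood higher in Thpok-RKF+ than in Thpok-RKF- CD4+CD8+ cells of the same study and because of where they lie. Rabl2, Syt10 and Cpne8 lie in the same stretch of chromosome 15, with Alg10b and several noncoding genes and pseudogenes among them. Dcst2 and Gm15417 lie on either side of Zbtb7b, the gene for Thpok, in gene order on chromosome 3. The span of Gm15417 overlaps that of Zbtb7b on the opposite strand. The difference of the 5 genes between those groups is therefore what picked them, and it is given below as a description with no test.

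Each of the 5 groups had 3 libraries. All cells came from C57BL/6 mice made into mixed marrow chimeras, and 1 gate for mature thymocytes, CD44lo TCRb hi CD24lo CD69lo, was used throughout. The wild-type cells, marked by CD45.1 together with CD45.2, were the competitor cells of these chimeras: WT CD4 SP cells were taken from B2m-/- hosts, which lack MHC class I, and WT CD8 SP cells from I-Ab-/- hosts, which lack MHC class II. The 3 mutant groups were CD45.2+ cells from Thpokfl/fl Runx3fl/dYFP Cd4-Cre+ donors that had developed in irradiated CD45.1+ B2m-/- hosts. Cells without Thpok-RKF were sorted both as CD8 SP and as CD4+CD8+, and cells with it (Thpok-RKF+) as CD4+CD8+. Thus every mutant group shares the floxed Thpok and Runx3 alleles and the Cre, and the CD4+CD8+ groups differ in the labels by Thpok-RKF alone. The labels do not say what Thpok-RKF is, how cells received it, whether its reads count as Zbtb7b, or whether the replicates are separate animals, so p-values measure the spread between these libraries, which may be technical. Cd4-Cre acts from the immature double-positive stage onward, and host and lineage cannot be told apart in the WT groups.

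Thpok is a zinc finger transcription factor that directs thymocytes selected on MHC class II to the CD4 helper lineage and represses the CD8 programme, while Runx3 acts in the opposite direction in CD8 cells. The 5 genes have no shared textbook role in this choice. Rabl2 encodes a small GTPase of the RAB-like group that acts with the intraflagellar transport complex IFT-B at the base of the cilium. Syt10 encodes a synaptotagmin, a calcium sensor of vesicle exocytosis studied in neurons, and Cpne8 a copine, a protein that binds membrane phospholipids in response to calcium. Dcst2 encodes a membrane protein of the DC-STAMP family needed for sperm-egg fusion. Gm15417 is a predicted gene on the strand opposite to Zbtb7b.

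The sequences just upstream of these genes are shown because the 3 members on chromosome 15 stood high in the same libraries. RefSeq promoter sequence matched 5 of 5 genes, on build GRCm38.p6. The counts were made on mm39, so these positions are not those of the counting. Each run below is the 250 bases before the annotated start, 5′ to 3′ on the strand of the gene, and Alg10b, which lies between Syt10 and Cpne8, is added for comparison. Capitals mark matches on either strand. The motifs searched were the usual core of Runx sites, TGTGGT, with its less frequent variant form, TGCGGT, then the GC box of housekeeping promoters, GGGCGG, the TATA box near many regulated start sites, TATAAA, and the core of sites for ETS family factors, GGAAGT. No match overlapped another.
Rabl2, chr15:89591924-89592173, minus strand: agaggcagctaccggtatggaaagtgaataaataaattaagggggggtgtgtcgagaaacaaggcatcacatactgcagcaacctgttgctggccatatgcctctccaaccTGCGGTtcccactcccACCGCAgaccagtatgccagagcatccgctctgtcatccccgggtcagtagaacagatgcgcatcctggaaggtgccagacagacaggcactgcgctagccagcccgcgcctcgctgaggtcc
Syt10, chr15:89841861-89842110, minus strand: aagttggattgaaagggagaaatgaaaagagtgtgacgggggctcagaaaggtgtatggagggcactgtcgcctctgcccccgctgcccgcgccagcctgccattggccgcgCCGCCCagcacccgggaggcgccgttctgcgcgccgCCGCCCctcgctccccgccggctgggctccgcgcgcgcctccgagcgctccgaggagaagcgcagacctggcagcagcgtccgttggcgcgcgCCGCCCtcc
Alg10b, chr15:90224061-90224310, plus strand: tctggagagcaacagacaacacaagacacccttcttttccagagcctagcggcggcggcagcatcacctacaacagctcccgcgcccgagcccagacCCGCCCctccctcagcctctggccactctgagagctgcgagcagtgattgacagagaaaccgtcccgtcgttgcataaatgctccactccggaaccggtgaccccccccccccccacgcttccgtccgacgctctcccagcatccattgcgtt
Cpne8, chr15:90679389-90679638, minus strand: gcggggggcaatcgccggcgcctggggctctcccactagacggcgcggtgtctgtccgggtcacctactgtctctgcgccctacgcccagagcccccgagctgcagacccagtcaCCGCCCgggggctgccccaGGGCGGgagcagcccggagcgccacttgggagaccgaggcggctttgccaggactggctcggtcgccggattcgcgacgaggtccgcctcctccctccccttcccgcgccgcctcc
Dcst2, chr3:89365069-89365318, plus strand: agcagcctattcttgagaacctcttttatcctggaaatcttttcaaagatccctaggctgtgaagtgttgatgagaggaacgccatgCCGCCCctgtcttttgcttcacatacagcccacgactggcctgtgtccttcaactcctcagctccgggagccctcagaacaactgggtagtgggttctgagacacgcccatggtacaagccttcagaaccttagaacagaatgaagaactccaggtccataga
Gm15417, first of its annotated starts, chr3:89391614-89391863, plus strand: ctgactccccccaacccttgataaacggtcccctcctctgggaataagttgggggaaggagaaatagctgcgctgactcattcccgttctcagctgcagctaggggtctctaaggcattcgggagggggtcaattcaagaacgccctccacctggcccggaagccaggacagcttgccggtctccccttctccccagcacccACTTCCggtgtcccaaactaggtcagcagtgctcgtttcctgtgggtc

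The Syt10 and Cpne8 sequences were rich in G and C, at 72.0% and 74.4%, and held 32 and 28 CpG dinucleotides, against medians of 52.4% and 6.0 over 32851 promoter sequences of the same length. Rabl2 and Alg10b stood between, at 57.2% with 11 and 62.8% with 18 CpG dinucleotides. Dcst2, at 50.4% with 5, was close to the medians, and the Gm15417 sequence printed held 59.2% and 9. GGGCGG matched 3 times at Syt10, 2 times at Cpne8 and 1 time each at Alg10b and Dcst2, and 32.7% of all promoters hold it. TGCGGT matched 2 times at Rabl2, and 5.1% of all promoters hold it. GGAAGT matched 1 time at Gm15417 (19.7% of all promoters). TGTGGT and TATAAA, held by 14.0% and 12.4% of all promoters, matched at none of the 6 sequences. A match is a description of letters, not a binding site.

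Gene totals per library lay between 37311823 and 48607260 counts, and levels are given as CPM, counts scaled to a common gene total per library with TMM factors. The sort was checked against markers: 9 mature T cell genes summed to 8190 to 14500 CPM, and Cd8a lay between 748 and 1254 CPM in the CD4+CD8+ libraries of both kinds. Cd4 lay between 214 and 397 CPM in Thpok-RKF- and between 1035 and 1146 CPM in Thpok-RKF+ CD4+CD8+ libraries, a log2 difference of 1.97 ± 0.42 (edgeR adjusted p = 0.0393). A list of 8 B cell genes summed to between 362 and 760 CPM in Thpok-RKF+ and between 446 and 698 CPM in Thpok-RKF- CD4+CD8+ libraries, most of it from Ighm (347 to 735 CPM and 438 to 688 CPM). Ms4a1 had 0 counts in every library. Ighd was higher in Thpok-RKF+ libraries, at 4.80, 6.67 and 3.24 CPM against 0.325, 0.0443 and 1.02 CPM (edgeR adjusted p = 0.0432). Myeloid genes, 8 in all, summed to between 2.04 and 55.7 CPM in Thpok-RKF+ CD4+CD8+ libraries, highest in replicate 1, where Lyz2, 1 of the 8, reached 24.5 CPM (28.3 CPM in WT CD4 SP replicate 1). Itgam, also listed, lay between 0.237 and 0.367 CPM in Thpok-RKF+ and between 0.244 and 0.776 CPM in Thpok-RKF- CD4+CD8+ libraries. Of the 7 tested between these groups edgeR called 0. In Thpok-RKF+ replicate 1, reads that fell in no annotated feature, 1 of the summary lines of the counting, made up 11.2% of counted reads, against 5.28% and 5.65% in the other Thpok-RKF+ libraries. The part of these differences in the results was not tested.

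Syt10 was close to silent outside the Thpok-RKF+ cells. Its Thpok-RKF+ libraries held 33.4, 47.9 and 45.7 CPM (1581, 2220 and 1930 counts). Those of Thpok-RKF- CD4+CD8+ cells held 0.0407, 0 and 0 CPM, which is 2 counts in all. The 3 Thpok-RKF- CD8 SP libraries had 0 counts, where a count of 0 over the group allows up to 0.0221 CPM. WT CD4 SP libraries held 0.708, 0.0414 and 0.274 CPM, and WT CD8 SP libraries 0.479, 0.376 and 0 CPM. All Thpok-RKF+ libraries were thus far above the 12 others, and the 2 WT groups overlapped each other.

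Cpne8 had the same on-or-off form. In Thpok-RKF+ libraries it reached 31.1, 22.3 and 26.6 CPM (1470, 1031 and 1122 counts). In Thpok-RKF- CD4+CD8+ libraries it stood at 0.0203, 0 and 0 CPM and in Thpok-RKF- CD8 SP libraries at 0, 0 and 0.0223 CPM, a single count in each group. WT CD4 SP libraries had 1, 0 and 1 counts. Of the WT CD8 SP libraries, replicate 1 stood apart with 25 counts (0.665 CPM), against 2 and 0 in the others. Cpne8 was the only member whose place among the 16550 genes tested rested on the Thpok-RKF+ libraries, since the other 4 passed the filter on low counts without them.

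Rabl2, in contrast, was measurable in every group. Thpok-RKF+ libraries held 13.6, 18.4 and 18.6 CPM and Thpok-RKF- CD4+CD8+ libraries 0.854, 1.42 and 1.38 CPM. Thpok-RKF- CD8 SP libraries held 1.30, 0.778 and 1.05 CPM, and WT CD8 SP libraries 2.31, 1.38 and 2.26 CPM. The WT CD4 SP libraries were lowest on average, with 0.206, 0.848 and 0.0229 CPM. Every Thpok-RKF+ library lay above all others.

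The summed counts put a size on these differences, with 95% intervals that cover counting error only. Between the CD4+CD8+ groups, Rabl2 was 13.9-fold higher (interval 11.9 to 16.4), from 16.9 ± 2.81 against 1.22 ± 0.314 CPM (SD, n = 3), a log2 difference of 3.79 ± 0.65 (SE) in the edgeR fit. Syt10 was 2939-fold higher (813 to 24300), from 42.4 ± 7.81 CPM in Thpok-RKF+ cells. Cpne8 was 3716-fold higher (667 to 147000), from 26.6 ± 4.41 CPM (SD, n = 3). The width of both intervals comes from the 2 and 1 counts in the Thpok-RKF- group, which all fell in its replicate 1; without that library the group had none, and the ratios were at least 1270 for Syt10 and at least 802 for Cpne8. Against WT CD8 SP cells Syt10 was 154-fold higher (109 to 224), and 233-fold without WT CD8 SP replicate 1 and 99.1-fold without replicate 3. Cpne8 was 119-fold higher there (81.6 to 181), but 25 of the 27 WT CD8 SP counts were in replicate 1, and the ratio was 1104 (305 to 9120) without it and 76.6 without replicate 3. Against WT CD4 SP cells Syt10 was 127-fold higher (95.1 to 175), and 278-fold (165 to 508) without replicate 1, which held 31 of the 45 counts. The spread between libraries was thus wider than these counting intervals. In bulk samples a larger share of expressing cells and more RNA per cell cannot be told apart.

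In the order of group means, Thpok-RKF+ cells were followed for Rabl2 by WT CD8 SP (1.98 ± 0.524 CPM), Thpok-RKF- CD4+CD8+, Thpok-RKF- CD8 SP (1.04 ± 0.262 CPM) and WT CD4 SP (0.359 ± 0.434 CPM, SD, n = 3), and each of these overlapped its neighbour in the order. For Syt10 the WT groups came next, CD4 SP before CD8 SP, then the Thpok-RKF- groups, CD4+CD8+ before CD8 SP, again with overlap at each step. For Cpne8 the 4 lower groups all overlapped. Within the Thpok-RKF+ libraries, Rabl2 kept close to Syt10, at 40.8, 38.3 and 40.8 counts per 100 Syt10 counts. Cpne8 did not, at 93.0, 46.4 and 58.1 counts per 100 Syt10 counts, with replicate 1 the highest.

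**Figure D1:**
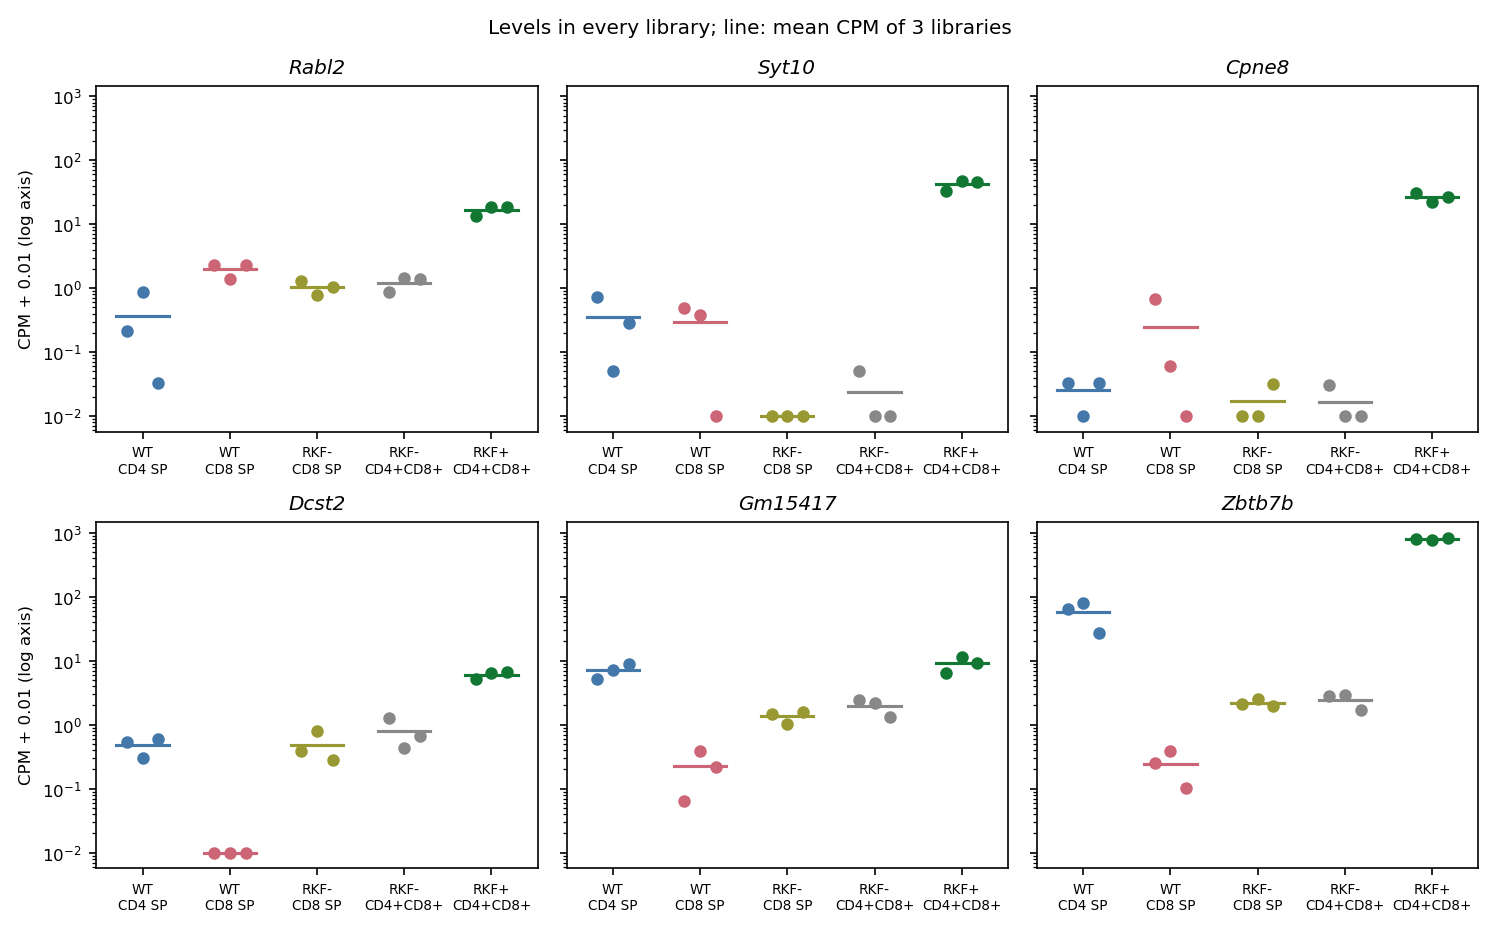
Level of each of the 5 genes and of Zbtb7b in the 15 libraries, in CPM + 0.01 on a log axis, by group; each dot is 1 library and each line a group mean (n = 3). The 3 Thpok-RKF+ CD4+CD8+ libraries lie above the 12 others in every panel but that of Gm15417, where they overlap WT CD4 SP.

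Dcst2 was low in every group and highest in Thpok-RKF+ cells. Thpok-RKF+ libraries held 5.16, 6.33 and 6.73 CPM, and Thpok-RKF- CD4+CD8+ libraries 1.26, 0.421 and 0.644 CPM. Thpok-RKF- CD8 SP libraries held 0.382, 0.778 and 0.267 CPM, WT CD4 SP libraries 0.525, 0.290 and 0.594 CPM, and the 3 WT CD8 SP libraries 0 counts. Every Thpok-RKF+ library stood above the rest, the 3 middle groups overlapped, and WT CD8 SP lay below them all. From summed counts, Dcst2 was 7.66-fold higher in Thpok-RKF+ than in Thpok-RKF- CD4+CD8+ cells (6.27 to 9.43), a log2 difference of 2.96 ± 0.54 (SE). It was 13.0-fold higher than in WT CD4 SP cells. Without the libraries numbered 1 the log2 difference was 3.61.

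Gm15417 was high in WT CD4 SP cells as well as in Thpok-RKF+ cells. Thpok-RKF+ libraries held 6.34, 11.6 and 9.28 CPM and WT CD4 SP libraries 5.09, 7.18 and 9.03 CPM, so that both groups overlapped. Thpok-RKF- CD4+CD8+ libraries held 2.38, 2.19 and 1.31 CPM, Thpok-RKF- CD8 SP libraries 1.48, 1.02 and 1.56 CPM, and WT CD8 SP libraries 0.0532, 0.376 and 0.210 CPM. The 2 Thpok-RKF- groups overlapped each other and lay between WT CD8 SP and the upper 2 groups. The ratio of summed counts between Thpok-RKF+ and Thpok-RKF- CD4+CD8+ cells was 4.58 (4.02 to 5.24), with a log2 difference of 2.21 ± 0.44 (SE), and that between Thpok-RKF+ and WT CD4 SP cells was 1.27 (1.17 to 1.39).

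Zbtb7b itself stood at 812, 768 and 823 CPM in Thpok-RKF+ libraries, at 64.0, 79.1 and 27.4 CPM in WT CD4 SP libraries and at or below 2.95 CPM in the other 3 groups. Reads of Gm15417 and Zbtb7b need care, because 116 of 1669 exon bases of Gm15417 (7.0%) are shared with Zbtb7b on the opposite strand in GENCODE M21, and the strand setting of the counting is not given in the sources used here. Reads from the shared bases therefore cannot be assigned to 1 strand. Overlap of exons of 1 gene with introns of the other was not measured, so the share of bases at risk may be larger. Dcst2 shares 0 exon bases with Dcst1, whose span overlaps it on the opposite strand.

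Gm15417 counts did not keep a fixed proportion to Zbtb7b counts. Zbtb7b counts may include reads of Thpok-RKF, and the mutant cells carry floxed Thpok alleles. The ratios are therefore of counts and need not reflect transcription of the Zbtb7b gene. In Thpok-RKF+ libraries it had 0.782, 1.51 and 1.13 counts per 100 Zbtb7b counts. In Thpok-RKF- CD4+CD8+ libraries it had 86.0, 74.4 and 78.7, and in WT CD4 SP libraries 7.96, 9.07 and 33.0. The 3 groups did not overlap, so Zbtb7b counts differed between them by more than Gm15417 counts did. Dcst2 had 0.636, 0.824 and 0.817 counts per 100 Zbtb7b counts in Thpok-RKF+ libraries and 45.6, 14.3 and 38.7 in Thpok-RKF- CD4+CD8+ libraries. In WT CD4 SP libraries it had 0.821, 0.366 and 2.2, which overlapped the Thpok-RKF+ libraries.

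**Figure D2:**
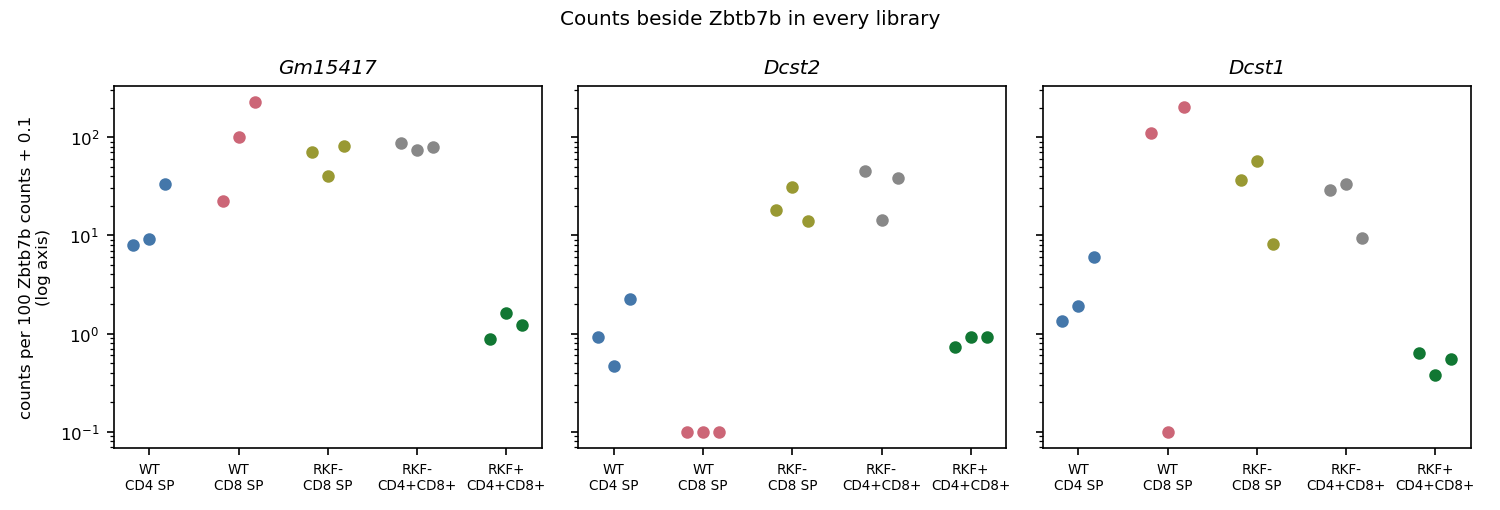
Counts of Gm15417, Dcst2 and Dcst1 per 100 Zbtb7b counts (+ 0.1, log axis) in each library, by group; each dot is 1 library. For Gm15417 the Thpok-RKF+ libraries (0.782 to 1.51) lie below WT CD4 SP (7.96 to 33.0), which lie below Thpok-RKF- CD4+CD8+ (74.4 to 86.0). WT CD8 SP values rest on few counts, and Zbtb7b counts may include reads of Thpok-RKF.

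The remaining comparisons did not enter the choice of the genes, and edgeR's quasi-likelihood test was run on them over all 16550 genes. Cpne8 was among these genes only because of its counts in the Thpok-RKF+ libraries. Nothing is therefore read from the number of members called, or from the p-values of Cpne8, in any of these comparisons. When WT CD4 SP cells were set against WT CD8 SP cells, 3 of 5 members passed at an adjusted p of 0.05, against 18% of all genes tested (2981, with 7.72% higher and 10.3% lower in WT CD4 SP cells). Gm15417 was higher in WT CD4 SP cells by 5.03 ± 0.52 on the log2 scale (SE; edgeR adjusted p = 1.32e-05), and by 5.71 without WT CD8 SP replicate 2. Dcst2, with 63 counts against 0, was at least 18.6-fold higher in WT CD4 SP cells (edgeR adjusted p = 0.000244; limma did not call it, adjusted p = 0.0567). Zbtb7b was higher there by 7.91 ± 0.47 (edgeR adjusted p = 4.58e-08).

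Rabl2 went the other way in WT cells. It was lower in WT CD4 SP than in WT CD8 SP cells by a log2 difference of -2.44 ± 0.65 (edgeR adjusted p = 0.0175), a 5.29-fold ratio of summed counts (3.89 to 7.30), and all libraries of one group lay below all of the other. The call did not hold without WT CD4 SP replicate 1 (adjusted p = 0.0736), WT CD8 SP replicate 1 (0.0514) or WT CD8 SP replicate 3 (0.0520) in edgeR, and the difference was -4.06 without WT CD4 SP replicate 2 and -1.99 without the libraries numbered 1 (adjusted p = 0.149). In an edgeR fit of the WT libraries alone the adjusted p was 0.114. Syt10 differed by 0.27 ± 0.88 (edgeR adjusted p = 0.886). Cpne8, with 2 counts against 27, missed the threshold (edgeR adjusted p = 0.0603).

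Thpok-RKF- CD8 SP cells were then set against WT CD8 SP cells, which differ in genotype and in host. Here 4 of 5 members passed, against 18.4% of all genes tested (3044, with 7.77% higher and 10.6% lower in the mutant cells), and they moved in both directions. Among the 4, Cpne8 was tested only through the Thpok-RKF+ libraries, which are not part of this comparison, so nothing is read from that number. Gm15417 was higher in the mutant cells by 2.64 ± 0.50 on the log2 scale (edgeR adjusted p = 0.00156), and by 3.32 without WT CD8 SP replicate 2. Dcst2, with 65 counts against 0, was at least 19.2-fold higher (edgeR adjusted p = 0.00018; limma 0.0501). Zbtb7b was also higher, by 3.21 ± 0.50 (edgeR adjusted p = 0.000347).

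Syt10 and Cpne8 had fewer counts in the mutant cells of that comparison, and counts were few in both groups. Cpne8 was tested only through the Thpok-RKF+ libraries, so nothing is read from its p-values here. Syt10 had 0 counts against 33 and was at least 12.4-fold lower (edgeR adjusted p = 0.0368). Cpne8 had 1 count against 27, a ratio of 30.4 (5.02 to 1250; edgeR adjusted p = 0.0405). For both genes a WT CD8 SP library also had 0 counts, so the groups overlapped. The Syt10 call was lost in 5 of 6 edgeR fits that left out 1 library (adjusted p 0.0892 to 0.104). Without WT CD8 SP replicate 1, which held 25 of the 27 counts, the Cpne8 adjusted p was 0.557, and without each Thpok-RKF- CD8 SP library it was 0.127, 0.131 and 0.0799 in edgeR. Without the libraries numbered 1 neither was called (adjusted p 0.169 and 0.727). Rabl2 did not pass, at -0.93 ± 0.60 (edgeR adjusted p = 0.346), although its mutant libraries all lay below the WT ones.

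The next comparisons use the Thpok-RKF- CD4+CD8+ libraries, which also served in the contrast that picked the genes. Between Thpok-RKF- CD4+CD8+ and Thpok-RKF- CD8 SP cells, 0 of 5 members were called by edgeR, 0 at an unadjusted p of 0.05, and 0 by DESeq2 or limma, against 2.44% of all genes tested (403, with 1.72% higher and 0.719% lower in CD4+CD8+ cells). The log2 difference was 0.54 for Gm15417 (edgeR adjusted p = 0.797), 0.70 for Dcst2 (0.763) and 0.22 for Rabl2 (0.970). For Zbtb7b, too, libraries of both groups overlapped.

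Against WT CD4 SP cells, 1 of 5 members was called in Thpok-RKF- CD4+CD8+ cells, against 17.6% of all genes tested (2908, with 9.15% higher and 8.42% lower in the mutant cells). That was Gm15417, which fell by 1.85 ± 0.44 on the log2 scale (edgeR adjusted p = 0.011), as did Zbtb7b, by 4.53 ± 0.36 (edgeR adjusted p = 1.21e-06). Rabl2 differed by 1.73 ± 0.65 and missed the threshold (edgeR adjusted p = 0.0774), but its libraries all lay above WT CD4 SP and DESeq2 and limma called it (0.0186 and 0.0363). Syt10, with 2 counts against 45, had an edgeR adjusted p of 0.0501 and a DESeq2 one of 0.0382. Dcst2 differed by 0.72 ± 0.52 (edgeR adjusted p = 0.367), and Cpne8 had 1 count against 2.

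The difference of differences, a contrast added after the data were seen, asks whether the step from CD8-type to CD4-bearing cells was the same in Thpok-RKF- mutant cells as in WT cells. It too uses the Thpok-RKF- CD4+CD8+ libraries, and picking genes that stood lower in them favours a smaller mutant step. For Gm15417 the mutant step was smaller than the WT step by 4.50 ± 0.66 on the log2 scale (edgeR adjusted p = 0.000393; 14.3% of all genes tested passed). Dcst2 also passed (edgeR adjusted p = 0.00238), on a WT CD8 SP group with 0 counts, and limma did not call it (adjusted p = 0.542). Rabl2, Syt10 and Cpne8 did not pass (edgeR adjusted p 0.0591, 0.68 and 0.579).

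The genes around the members were examined in RefSeq order, since distances on mm39 were not used here. Around Rabl2, Syt10 and Cpne8, 12 of 22 listed neighbours were tested between Thpok-RKF+ and Thpok-RKF- CD4+CD8+ cells, and the other 10 lay at or below 0.616 CPM in every library. By edgeR 0 of the 12 were called and 3 had an unadjusted p below 0.05. DESeq2 called 1 and limma 2, and 0.961% of all genes tested (159) were called by edgeR, 0.586% higher and 0.375% lower in Thpok-RKF+ cells. The list's median log2 difference was 0.00752, against 0.00618 over all genes tested. Its fitted values ran in both directions, from -6.25 to 3.69, and 1 neighbour had no count in 1 of the groups, where a fitted value is not a size. In Alg10b, Shank3 and Abcd2 every Thpok-RKF+ library stood above every Thpok-RKF- CD4+CD8+ library, as in 7.63% of all genes tested, and above all 12 other libraries, as in 0.924%. Shank3 was tested only because of its counts in the Thpok-RKF+ libraries, so nothing is read from the number of such neighbours. Shank3 and Abcd2 are named here after their values were seen.

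Alg10b encodes a glucosyltransferase of the lipid-linked oligosaccharide used in N-glycosylation, and it is the tested gene between Syt10 and Cpne8. Thpok-RKF+ libraries held 29.9, 12.7 and 13.9 CPM and Thpok-RKF- CD4+CD8+ libraries 4.31, 7.33 and 9.24 CPM, while the other 9 libraries lay between 1.39 and 6.97 CPM. The groups did not overlap, and replicate 1 was the highest. The ratio of summed counts was 2.77 (2.57 to 2.98). The log2 difference of 1.43 ± 0.48 did not pass (edgeR adjusted p = 0.202) and was 0.68 without the libraries numbered 1.

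Shank3, a scaffold protein of excitatory synapses, held 4.29, 0.864 and 2.16 CPM in Thpok-RKF+ and 0.224, 0.199 and 0.133 CPM in Thpok-RKF- CD4+CD8+ libraries. It passed the filter on low counts only through the Thpok-RKF+ libraries, so its p-values are given as a description. Its log2 difference of 3.69 ± 1.09 did not pass in edgeR (adjusted p = 0.155) but passed in DESeq2 (0.0136) and limma (0.0101). Abcd2, a peroxisomal transporter of very-long-chain fatty acids, held 6.79, 12.3 and 4.0 CPM in Thpok-RKF+ and 1.38, 0.199 and 0.733 CPM in Thpok-RKF- CD4+CD8+ libraries (log2 difference 3.31 ± 1.17, edgeR adjusted p = 0.225, limma 0.00579). Without the low-count filter edgeR called Abcd2 (0.0307).

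Abcd2 was also higher in Thpok-RKF- CD4+CD8+ than in WT CD4 SP cells, where it had 0 counts, by at least 35.8-fold (edgeR adjusted p = 0.0192). Shank3 had 26 counts against 0 in the same groups, at least 8.45-fold (edgeR adjusted p = 0.0255). They were the 2 of 12 neighbours called there (16.7%, against 17.6% of all genes tested). Shank3 was tested there only because of its counts in the Thpok-RKF+ libraries, so nothing is read from its p-value or from that share. Abcd2 was likewise the 1 of 12 neighbours called between Thpok-RKF- CD8 SP and WT CD8 SP cells (edgeR adjusted p = 0.0312; 18.4% of all genes tested passed), though their libraries overlapped. Between the WT groups, and between the Thpok-RKF- groups, edgeR called 0 of the 12, against 18% and 2.44% of all genes tested, with 1 and 0 at an unadjusted p below 0.05.

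The nearest tested genes on the outer sides did not pass in edgeR. Gm15609, before Rabl2, held 1.86, 0.302 and 0.379 CPM in Thpok-RKF+ and 0, 0 and 0.267 CPM in Thpok-RKF- CD4+CD8+ libraries (edgeR adjusted p = 0.367). Rpl31-ps8, a ribosomal protein pseudogene beyond Cpne8, differed by -0.22 (edgeR adjusted p = 0.818), and Arsa, the arylsulfatase A gene, which lies farther from Rabl2 than Shank3, by -0.01 ± 0.19 (edgeR adjusted p = 0.993). Acr, the acrosin gene next to Rabl2, had 0 counts in every library.

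**Figure D3:**
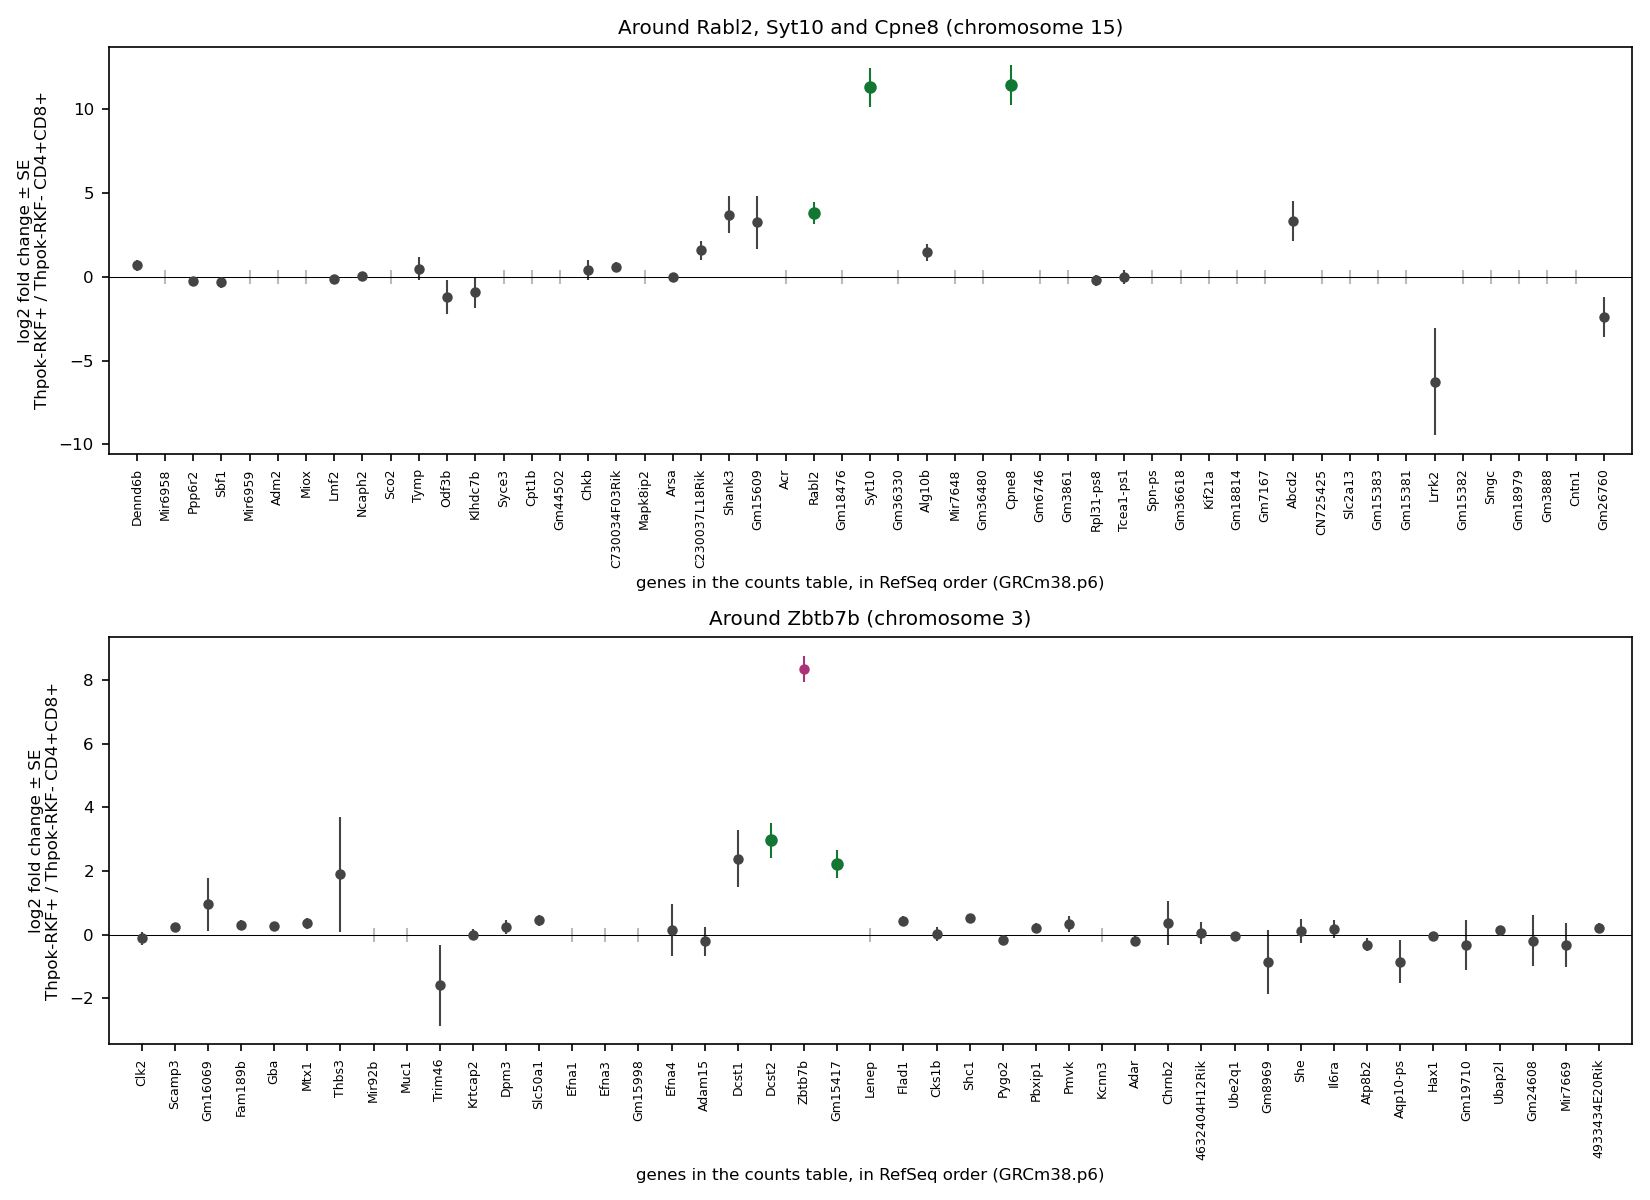
Fitted log2 difference (± SE) between Thpok-RKF+ and Thpok-RKF- CD4+CD8+ cells of each tested gene, in RefSeq gene order, around Rabl2, Syt10 and Cpne8 on chromosome 15 and around Zbtb7b on chromosome 3; green marks members, purple Zbtb7b, and grey ticks genes not tested. Most neighbours lie near 0, with Shank3, Alg10b, Abcd2 and Dcst1 above it and others below it. Fitted values of the neighbours ran from -6.25 to 3.69 on chromosome 15 and from -1.59 to 2.39 on chromosome 3. Those of genes with 0 counts in a group are not sizes.

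Around Zbtb7b, 15 of 20 listed neighbours were tested between Thpok-RKF+ and Thpok-RKF- CD4+CD8+ cells. Of these, 14 passed the low-count filter without the Thpok-RKF+ libraries and the other only through them, so nothing is read from their shares. By edgeR 0 of the 15 were called, against 0.961% of all genes tested, with 4 at an unadjusted p below 0.05; DESeq2 called 1, limma 1, and edgeR 2 without the libraries numbered 1. The median log2 difference was 0.233, above that of all genes (0.00618), and values ran from -1.59 to 2.39. Dcst1, the DC-STAMP family gene that acts with Dcst2 in sperm-egg fusion and lies beside it, held 4.29, 2.16 and 3.67 CPM in Thpok-RKF+ and 0.793, 0.975 and 0.155 CPM in Thpok-RKF- CD4+CD8+ libraries. It was the 1 of 15 neighbours (6.67%, against 0.924% of all genes tested) above all 12 other libraries. Its log2 difference was 2.39 ± 0.90 (edgeR adjusted p = 0.243; limma 0.0219). Flad1, the FAD synthase gene on the other side of Zbtb7b from Dcst2, differed by 0.42 ± 0.16 (edgeR adjusted p = 0.240), with the groups apart. The same held for Shc1 (0.51 ± 0.14, edgeR adjusted p = 0.114) and Mtx1, so that 4 of 15 (26.7%, against 7.63% of all genes tested) lay above without overlap, and 1, Pygo2, lay below; Shc1, Mtx1 and Pygo2 are named after their values were seen.

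These genes were also compared between the WT lineages. Between the WT groups, 6 of 15 neighbours of Zbtb7b passed in edgeR (40%, against 18%), 5 higher and 1 lower in WT CD4 SP cells. They too are named after their values were seen. Adam15, a membrane metalloprotease, was higher by 3.79 ± 0.51 on the log2 scale (edgeR adjusted p = 0.000139), and the ephrin gene Efna4 by 3.01 ± 0.92 (edgeR adjusted p = 0.0355). Dcst1 was higher by 3.08 ± 0.97 (edgeR adjusted p = 0.0402), the sugar transporter gene Slc50a1 by 0.91 ± 0.17 (0.0017) and Flad1 by 0.60 ± 0.16 (0.0151). Cks1b, which encodes a cyclin-dependent kinase subunit, was the lower one, at -1.10 ± 0.22 (edgeR adjusted p = 0.00308). In Thpok-RKF+ cells the Adam15 mean was 1.68 ± 0.894 CPM, against 1.94 ± 0.766 CPM in Thpok-RKF- CD4+CD8+ and 7.19 ± 3.10 CPM in WT CD4 SP cells (SD, n = 3).

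The other members of the gene families were listed next: 53 RAB-like, IFT-B, synaptotagmin, copine and DC-STAMP genes, of which 34 were tested. Between Thpok-RKF+ and Thpok-RKF- CD4+CD8+ cells edgeR called 1 of 34 (2.94%, against 0.961%), with 9 at an unadjusted p below 0.05. That gene was Sytl2, a synaptotagmin-like effector of Rab27 in granule docking. Its Thpok-RKF+ libraries held 84.0, 105 and 111 CPM, and its Thpok-RKF- CD4+CD8+ libraries 58.9, 47.8 and 35.8 CPM. Those of WT CD4 SP held 44.4, 55.5 and 62.4 CPM, and the groups with CD8 alone between 7.39 and 20.5 CPM. Sytl2 was thus lower in the single-positive CD8 libraries than in all others. The log2 difference between the CD4+CD8+ groups was 1.07 ± 0.20 (edgeR adjusted p = 0.0213). It did not pass without replicate 2 or 3 of either group (edgeR adjusted p 0.0828, 0.1, 0.0847 and 0.108).

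Among the IFT-B and RAB-like genes, listed by name as relatives of Rabl2 or of its complex, 0 of 20 tested were called there by edgeR (2 at an unadjusted p below 0.05). Log2 differences in this list ran from -1.33 to 0.44 with a median of 0.0752. Of the synaptotagmins 8 of 21 were tested, with a median of -0.359 (-0.341 with genes lacking counts in a group at their bound). Of the copines 5 of 8 were tested, Cpne8 itself not among them, with 0 called and a median of 0.373. Cpne4 had 0 counts in the 12 other libraries and 69, 36 and 71 counts (1.46, 0.777 and 1.68 CPM) in the Thpok-RKF+ ones. That is at least 60.2-fold higher than in Thpok-RKF- CD4+CD8+ cells. It was the copine that passed the low-count filter only through these libraries, and is named after its values were seen. Its p-values are therefore given as a description. The edgeR adjusted p was 0.0532, that of limma 0.000197, and without Thpok-RKF+ replicate 1 the edgeR value was 0.0379.

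The same families were compared between the WT lineages. Of 34 tested, 8 passed between the WT groups in edgeR (23.5%, against 18%), 5 higher and 3 lower in WT CD4 SP. Sytl3, another Rab27 effector, was lower in WT CD4 SP cells by a log2 difference of -4.35 ± 0.28 (edgeR adjusted p = 9.65e-08) and Sytl1 by -1.49 ± 0.20 (0.000141), while Sytl2 was higher by 1.56 ± 0.21 (0.000134). Of the IFT-B genes, Ift80 was higher by 0.97 ± 0.14 (edgeR adjusted p = 0.000306), Ift20 by 0.73 ± 0.15 (0.00397) and Ift81 by 2.02 ± 0.61 (0.0322). Rabl2 was lower in the same cells. Between Thpok-RKF- CD8 SP and WT CD8 SP cells 9 of 34 passed in edgeR (26.5%, against 18.4% of all genes tested), 4 higher and 5 lower in the mutant cells, among them Sytl3 (-3.81 ± 0.27, adjusted p = 3.66e-07).

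The levels of the members can be placed among all genes tested, as a description, since the members were chosen for standing high in Thpok-RKF+ cells and Cpne8 was tested only through those libraries. A gene was counted as present almost only in Thpok-RKF+ cells when its lowest Thpok-RKF+ library held at least 1 CPM and at least 10 times the highest of the 12 other libraries. By this rule 4 genes of 16550 stood out. Syt10 (33.4 against 0.708 CPM) and Cpne8 (22.3 against 0.665 CPM) were 2 of them. The others were Gm8210 (3.43 against 0.114 CPM) and Gm8615 (7.30 against 0.494 CPM), annotated as pseudogenes on chromosomes 1 and 5. At 5 times the highest other library the rule took 8 genes: those 4, Rabl2, Zbtb7b, Gm11868 and Gm13841. Dcst2 and Gm15417 were not among them.

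**Figure D4:**
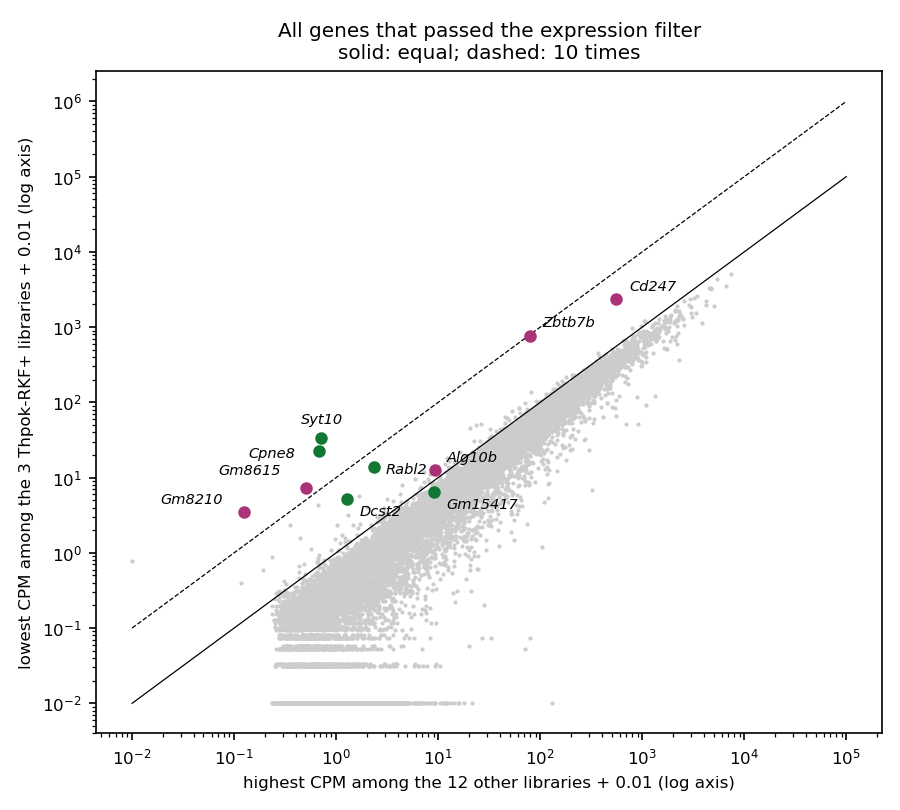
For each of the 16550 genes tested, the lowest level among the 3 Thpok-RKF+ CD4+CD8+ libraries against the highest among the 12 other libraries (CPM, log axes); the solid line marks equal levels and the dashed line 10 times. Syt10, Cpne8, Gm8210 and Gm8615 lie above the dashed line, Rabl2 and Dcst2 between the lines, and Gm15417 below the solid line.

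Genes whose pattern was most like that of a member were found by Pearson's r of log2(CPM + 0.5) over the 15 libraries, as a description. The libraries share their groups, so r mostly reflects the step between Thpok-RKF+ cells and the rest. For Syt10 the nearest were Cd247 (0.987), the zeta chain of the T cell receptor complex, Gm11868 (0.987), Gm8615 (0.981), Gm8210 (0.979) and Gm13841 (0.966). For Cpne8 they were Gm13841 (0.986), Gm8210 (0.986), Gm8615 (0.979), Cpne4 (0.977) and Cd247 (0.976). Rabl2 was nearest to Gm13841 (0.934), Mapk3 (0.909), the gene of the kinase ERK1, Bik (0.904), Gm8615 (0.900) and Gm8210 (0.898).

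The genes on chromosome 3 divided. Dcst2 was nearest to Cd247 (0.930), Gm5575 (0.929), Gm8210 (0.915), Gm8615 (0.908) and Cpne4 (0.900). Gm15417 was nearest to a different set, Ldhd (0.956), the gene of D-lactate dehydrogenase, Sardh (0.954), that of sarcosine dehydrogenase, Chchd10 (0.945), Trbd1 (0.944) and Gm14718 (0.943). Levels behind these values differed widely: Cd247 lay between 2375 and 2772 CPM in Thpok-RKF+ libraries and between 401 and 559 CPM in the others, while Gm13841 lay between 2.37 and 3.62 CPM against 0.103 to 0.346 CPM. Among the members, r was 0.986 for Syt10 with Cpne8, 0.924 for Rabl2 with Cpne8 and 0.884 for Rabl2 with Syt10. Gm15417 had r of 0.908 with Zbtb7b and 0.286 with Rabl2, and Dcst2 0.855 with Zbtb7b and 0.732 with Gm15417.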

How the data were processed

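Per the labels' protocols, RNA of sorted thymocytes was purified with an RNeasy Plus Micro kit, made into libraries with SMARTer Ultra Low Input reagents and sequenced on a NovaSeq in pairs of 101 bp. Tools listed without roles in the submitters' processing notes are bcl2fastq 2.17, Trimmomatic, STAR, HTSeq and DESeq2, with the build mm39. Not given in the sources used here are the annotation, the strand setting and further versions. The authors deposited raw counts per gene, identical for the 15 libraries in the single and the joint files. The deposited FPM values are CPM of those counts, since they gave whole reads in 100% of cases (tolerance 0.01), and the counts themselves were used. A further 3 columns in each joint file match no sample and were not used.

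The 5 summary lines that name no gene took 16.7% to 18.8% of counted reads on average in the groups and were left out. Replicates were not copies of one library (chi-square over degrees of freedom 11.1 to 190.4). Counts were fitted in R 4.3.3 with edgeR 4.0.16 (TMM, filterByExpr with a minimum count of 10 and a total of 15, 1 model with a mean for each of the 5 groups, quasi-likelihood F test, Benjamini-Hochberg adjustment over 16550 genes, threshold 0.05). Standard errors are the size of the log2 difference over the square root of F. Ratios of summed counts carry exact 95% intervals, and folds against 0 counts use 3 counts over the group as a floor. A count of 0 over a group allows 0.0215 to 0.0249 CPM.

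The count files give no coordinates, and the reference used here is of another build, so RefSeq GRCm38.p6 served for gene order and promoter letters and GENCODE M21 for overlaps only, and the neighbour lists are lists of names. The members and all lists were chosen with earlier results of these data known. Named genes are the members, Zbtb7b, called neighbours and the nearest tested neighbours, up to 4 called genes a family, the 5 genes most like each member, and genes present almost only in Thpok-RKF+ cells; where another is named, the text says that its values had been seen. Alternatives were DESeq2 1.42.0, limma 3.58.1 on log2 of the deposited values plus 1, no filter, other size factors, a replicate block, fits of the compared groups alone, and leaving out libraries. The fits were tested on simulated data for the contrast of Thpok-RKF+ with Thpok-RKF- CD4+CD8+ cells, with 50 genes changed at each size. There edgeR recovered 10% of 1.5-fold and 40% of 2-fold increases, and 48% of 4-fold and 80% of 8-fold decreases, in Thpok-RKF+ cells. Each size was simulated in 1 direction only, so recovery of larger increases is not known. A gene not called in that contrast may therefore still differ.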

Additional observations from a re-analysis of the deposited data

Results flagged for a closer look

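The step between CD8-type and CD4-bearing cells differed between Thpok-RKF- mutant and WT cells for Gm15417, with a difference of differences of -4.5 on the log2 scale (edgeR adjusted p = 0.000393). In WT cells Gm15417 was 32.9-fold higher in CD4 SP than in CD8 SP libraries (22.3 to 50.6), and in the mutant cells 1.46-fold higher in CD4+CD8+ than in CD8 SP libraries. Leaving out 1 library at a time, the value ran from -5.18 to -4.08 (edgeR adjusted p 0.000287 to 0.00193). For Dcst2 the fitted difference of differences was -6.69 (edgeR adjusted p = 0.00238). WT CD8 SP libraries had 0 counts of Dcst2, so that value is not a size, and limma on log2 of the deposited values plus 1 gave -0.29 (adjusted p = 0.542). The mutant and WT groups also differ in host on the CD8 side, and the part of the host was not tested. The Thpok-RKF- CD4+CD8+ libraries also served in the contrast that picked the genes. Picking genes that stood lower in them favours a smaller mutant step, and the part of that choice was not tested.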

How the results depend on the processing

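Of the alternative values with a test, 366 kept direction and side of the threshold, 24 gained and 26 lost the call, and 9 changed sign; the cause was not tested. Genes called between Thpok-RKF+ and Thpok-RKF- CD4+CD8+ cells numbered 159, but 708 with DESeq2, 428 without the low-count filter, 287 with limma, 52 with the compared groups alone, 240 with a replicate block, 1753 without the libraries numbered 1, and 50 to 1677 without single libraries. Same-numbered libraries were not treated as pairs in the main fit. Correlations of their deviations between the CD4+CD8+ groups were 0.137, 0.051 and 0.026. With 3 libraries a group, these values cannot show whether the libraries were paired. Between the Thpok-RKF- groups 403 became 785 with DESeq2 and 216 to 311 without single libraries. Leaving out single libraries gave 1908 to 2623 genes for the WT groups, 2037 to 2700 for Thpok-RKF- CD8 SP against WT CD8 SP, and 1488 to 2626 for Thpok-RKF- CD4+CD8+ against WT CD4 SP. Neighbours of Rabl2, Syt10 and Cpne8 called (0) became 1 with DESeq2, 2 with limma and 1 without the filter, and stayed at 0 without single libraries. Neighbours of Zbtb7b (0) became 1 with DESeq2, 1 with limma, 2 without the libraries numbered 1 and 0 to 3 without single libraries. Family genes (1) became 4 with DESeq2, 5 with limma, 4 without the filter, 3 without the libraries numbered 1, 2 with the replicate block and 0 to 4 without single libraries. Members called against WT CD4 SP (1) became 3 with DESeq2, 2 with limma, 3 without the filter and 1 to 3 without single libraries. Members called between Thpok-RKF- CD8 SP and WT CD8 SP (4) became 1 with limma, 2 with the compared groups alone, 2 without the libraries numbered 1 and 2 to 4 without single libraries. Those called between the WT groups (3) became 2 to 4. Genes present almost only in Thpok-RKF+ cells (4) became 8 at 5 times. Sign changes touched only uncalled values: Syt10 between the WT groups (-0.22 without the libraries numbered 1, -0.32 without WT CD8 SP replicate 3, and -0.83 to 0.90 over single libraries left out), the difference of differences of Cpne8 (-1.34 without the libraries numbered 1) and of Syt10 (-0.0308 with limma, and -0.29 to 3.44 over single libraries left out), and Cpne8 between the Thpok-RKF- groups (1.82 without Thpok-RKF- CD8 SP replicate 3, 0.39 without Thpok-RKF- CD4+CD8+ replicate 2 or 3, and -1.84 to 1.82 over single libraries left out). Windows of fixed distance around the members were not run, since the annotation is of another build; lists of 25 genes on each side in RefSeq order, added after the data were seen, gave 0 called of 20 and 0 of 35 tested, with 4 and 5 at an unadjusted p below 0.05 in edgeR. Depth limits Syt10 and Cpne8 outside Thpok-RKF+ cells, where groups hold 0 to 45 counts.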
